A study of Homo sapiens with 15 samples.

Results

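The Wnt ligands, their Frizzled receptors and co-receptors, the secreted Wnt inhibitors and a few feedback genes and nuclear factors of the pathway were followed in RNA-seq libraries of 143B cells, an established human osteosarcoma line. Members were the protein-coding genes found in both count tables whose symbol names a WNT, FZD, DKK or SFRP gene, together with AXIN2, LEF1, TCF7, LRP5, LRP6, ROR1, ROR2, RNF43 and ZNRF3. This gave 46 genes of the 20046 protein-coding genes and 62700 genes in all: 19 ligands, 10 Frizzled receptors, 4 co-receptors, 2 receptor ubiquitin ligases, 8 secreted inhibitors and 3 nuclear or feedback genes. There were 5 conditions of 3 libraries each. Osteosarcoma stem cells (OSCs) were grown as spheres in serum-free medium with B27, EGF and bFGF, and non-OSCs were the same line grown attached in medium with serum, so sphere growth, medium and the OSC state cannot be told apart. In the knockdown experiment, spheres carried a lentiviral control (shCtrl) or 1 of 2 hairpins against PDK1 (shPDK1#1, shPDK1#2). All 9 of these libraries share the lentiviral infection and the sphere culture. The paper calls the control shControl and lists a pLKO.1 puro plasmid, and whether the control carries a hairpin is not stated. The libraries come from 1 line, and the labels do not say that they are separate cultures, so the p-values measure the spread between these libraries.

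Wnt proteins are secreted, lipid-modified ligands. In the canonical branch a Wnt joins a Frizzled receptor to LRP5 or LRP6, the complex that destroys beta-catenin is held back, and beta-catenin enters the nucleus to act with LEF1 and TCF7 on target genes such as AXIN2. In the other branches ligands such as WNT5A and WNT11 act through Frizzled together with ROR1 or ROR2 on cell polarity and movement. DKK1 and DKK2 bind LRP5 and LRP6, the SFRP proteins bind Wnt ligands, and RNF43 and ZNRF3 remove Frizzled from the cell surface. The pathway drives bone formation, and LRP5 and DKK1 are known for their effect on bone mass.

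Library totals of expected counts ran from 7992534 to 10495088 in the table of OSCs and non-OSCs and from 8073103 to 11256578 in the knockdown table, and the 46 members took 0.153% to 0.177% of them. The knockdown was visible in the targeted gene. PDK1, a kinase that restrains pyruvate dehydrogenase, measured 46.7, 44.7 and 44.4 CPM (counts scaled to a common library total) with shCtrl, 29.0, 27.9 and 27.3 with shPDK1#1 and 18.2, 21.5 and 19.6 with shPDK1#2. Every knockdown library was below every shCtrl library, and the log2 fold change was -0.69 with shPDK1#1 and -1.19 with shPDK1#2. PDK1 was also 0.59 higher on the log2 scale in OSCs than in non-OSCs. Of the markers of the osteoblast lineage and mesenchyme, VIM (3817 to 6042 CPM) and COL1A1 (390 to 1388 CPM) were high in all 15 libraries. RUNX2 was present (at least 128 counts in every library). COL1A2 had few counts, 0 to 1 in OSCs, 7 to 10 in non-OSCs and at most 16 in the knockdown libraries. These markers did not move together: RUNX2 averaged 17.3 CPM in OSCs against 37.7 in non-OSCs, and COL1A1 averaged 1060 against 417 CPM. Of the 6 tested from this list, 3 were higher and 1 lower in OSCs (32.4% and 31.5% of all genes). IBSP was at 0, SP7 at no more than 1 count, BGLAP at no more than 7 counts and ALPL at 8 to 28 counts throughout, so markers of mature osteoblasts were absent or low.

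DKK1, FZD4 and LRP5 were the members that passed the test with shPDK1#1, and their promoters are shown for that reason. The windows, from RefSeq on GRCh38.p14, run from 250 bases before to 50 bases after the start of transcription, 5′ to 3′ on the strand of the gene. They lie at chr10:52314031-52314330 (plus strand) for DKK1, at chr11:86955346-86955645 (minus strand) for FZD4 and at chr11:68312341-68312640 (plus strand) for LRP5. Capitals mark the core of the site of the TCF/LEF factors through which beta-catenin acts on genes, searched as CTTTGAA and CTTTGAT on both strands.
DKK1 promoter: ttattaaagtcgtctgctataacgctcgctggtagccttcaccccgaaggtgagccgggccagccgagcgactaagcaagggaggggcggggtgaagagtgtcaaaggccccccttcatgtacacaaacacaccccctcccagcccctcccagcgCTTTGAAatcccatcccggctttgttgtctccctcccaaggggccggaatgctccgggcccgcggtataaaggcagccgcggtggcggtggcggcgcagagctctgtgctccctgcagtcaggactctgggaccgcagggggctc
FZD4 promoter: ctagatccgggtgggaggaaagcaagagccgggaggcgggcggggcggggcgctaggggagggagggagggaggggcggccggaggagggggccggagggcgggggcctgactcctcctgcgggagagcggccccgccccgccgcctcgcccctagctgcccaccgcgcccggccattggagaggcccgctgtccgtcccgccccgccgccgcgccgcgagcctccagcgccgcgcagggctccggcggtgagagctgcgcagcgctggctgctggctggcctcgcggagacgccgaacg
LRP5 promoter: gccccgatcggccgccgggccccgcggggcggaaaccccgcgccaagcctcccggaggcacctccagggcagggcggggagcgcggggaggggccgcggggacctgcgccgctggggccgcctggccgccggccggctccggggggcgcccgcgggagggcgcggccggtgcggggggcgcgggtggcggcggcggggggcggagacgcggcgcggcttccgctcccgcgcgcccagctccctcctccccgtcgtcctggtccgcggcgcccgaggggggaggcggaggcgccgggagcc
The DKK1 window held the core once, with its first base 95 bases before the start. These letters were not in the windows of FZD4 and LRP5. Among the 36 windows of the 31 members with an entry, DKK1 was the only 1 with the core, which 6.86% of all 35116 windows held. The FZD4 and LRP5 windows were rich in G and C (79.7% and 86.7%, against a median of 58.7% over all windows), and DKK1 was closer to that median at 63.7%. Other letters were found in few windows. RNF43 held an AP-1 site (TGANTCA, in 7.71% of all windows), LEF1 and TCF7 each held a CArG box (1.29% of all windows), and no member held the CRE (TGACGTCA, 1.85% of all windows). A match describes the letters of a window and was not tested as a binding site.

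Of the 46 members, 30 passed the filter on low counts in the table of OSCs and non-OSCs and 31 in the knockdown table. The others had at most 14 counts per library in the first table and at most 15 in the second. Of the ligands, 10 of 19 could be tested in at least 1 table. The canonical ligands WNT1, WNT3A and WNT8A never exceeded 4 counts in a library, WNT2 had 0 counts in all 15, and the inhibitor DKK4 had 1 count in 1 library. Several ligand genes lie side by side in the genome, and the neighbours were not measured alike. WNT6 passed the filter and WNT10A, 6618 bases further along chromosome 2, did not. The same held for WNT10B beside WNT1 on chromosome 12 (6586 bases apart), for WNT3 beside WNT9B on chromosome 17 (46 bases apart) and for WNT9A beside WNT3A on chromosome 1 (59065 bases apart). Some members passed the filter only through the groups where they were high. In the first table, WNT9A and WNT11 stayed under 10 counts in all non-OSC libraries and WNT7A in all OSC libraries. In the second, RNF43 and SFRP2 stayed under 10 counts in all shCtrl libraries.

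Per kilobase of merged exon, the most abundant members in OSCs were FZD8 (54.4 CPM per kilobase), WNT7B (47.6), SFRP1 (37.9), LRP5 (33.2) and FZD6 (24.3). WNT5A followed at 18.1 ± 0.531 and DKK1 at 17.1 ± 1.3 CPM per kilobase (mean ± SD, n = 3), neighbours that did not differ beyond their spread. In non-OSCs the order was led by SFRP1 at 114 CPM per kilobase, ahead of FZD8 at 30.3 and LRP5 at 30.2, a neighbouring pair within their spread. The nuclear factors and feedback genes were lower, with LEF1 at 7.04, AXIN2 at 2.03 and TCF7 at 1.07 CPM per kilobase in OSCs. Merged exons join all annotated transcripts of a gene and can exceed the length of the transcript expressed, so this order depends on the annotation. DKK3, with 11958 bases of merged exon, averaged 120 CPM in OSCs but only 10 CPM per kilobase. TCF7 has 10093 such bases.

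OSCs differed from non-OSCs in the RNA levels of several ligands and of the inhibitor SFRP1. WNT7B and WNT5A, the 2 most abundant ligands of OSCs, were more than doubled, WNT6 and WNT11 rose from low levels, and WNT5B fell to 19.9% of its non-OSC level. The inhibitor SFRP1 fell to 33.4% of its non-OSC level. At an adjusted p under 0.05 (edgeR's quasi-likelihood test), 24 of the 30 members tested differed, 15 higher and 9 lower in OSCs. These counts include WNT9A, WNT11 and WNT7A, which passed the filter only through the group where they were high. Among all 14288 genes tested 63.9% differed (32.4% higher and 31.5% lower), and whether the members differed more often than other genes was not tested. The median log2 fold change was 0.16 over the members and about 0 over all genes (-0.005), and the median size of the change was 0.48 against 0.44. In bulk RNA, fewer cells with a transcript and less transcript per cell cannot be told apart.

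WNT7B (chr22:45920366-45977162, minus strand), a ligand known for its role in bone formation, measured 227, 243.5 and 256 CPM in OSCs, against 96.2, 112 and 106 in non-OSCs. The difference on the log2 scale was 1.21 ± 0.061 (SE), with an adjusted p of 1.78e-13. WNT5A (chr3:55465715-55490539, minus strand), the best known ligand of the branches without beta-catenin, measured 132, 131 and 125 CPM in OSCs, against 63.6, 54.5 and 60.2 in non-OSCs (log2 fold change 1.12 ± 0.066, adjusted p = 2.55e-12). In both genes the OSC libraries lay well above all non-OSC libraries. WNT5B (chr12:1529891-1647212, plus strand), the close relative of WNT5A, went the other way. It measured 9.98, 11.3 and 12.8 CPM in OSCs, against 55.6, 50.02 and 65.8 in non-OSCs, a log2 fold change of -2.33 ± 0.119 (adjusted p = 2.15e-13). The paralogs WNT5A and WNT5B thus moved in opposite directions.

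Among the ligands of low level, WNT6 (chr2:218859805-218874233, plus strand) had 67, 102 and 66 counts in OSCs and 19, 14 and 18 counts in non-OSCs, with a log2 fold change of 2.31 ± 0.239 (adjusted p = 2.63e-08). WNT11 (chr11:76186325-76210736, minus strand), a ligand of cell movement, had 30, 34 and 38 counts in OSCs and 7, 9 and 9 counts in non-OSCs (2.13 ± 0.355, adjusted p = 2.00e-05). WNT9A had 9, 18 and 9 counts in OSCs against 2, 0 and 1 in non-OSCs. Since the non-OSC libraries of WNT9A did not exceed the floor of 3 counts per library, only a bound can be given, and the gene was at least 4.24-fold higher in OSCs. WNT7A was lower in OSCs, with 2, 7 and 5 counts against 15, 34 and 23 (-2.23 ± 0.487, adjusted p = 0.000417). WNT10B was called lower as well (-0.61 ± 0.243, adjusted p = 0.0344), yet the call was lost without any 1 of the libraries other than non-OSC 2, with DESeq2 and without the filter, where the adjusted p reached at most 0.125. WNT3 and WNT2B did not pass the test, at log2 fold changes of -0.05 and -0.40. WNT11 and WNT9A passed the filter through OSCs alone and WNT7A through non-OSCs alone, so their calls are not taken as support.

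The makeup of the ligand pool changed with these genes. Of all counts on the 19 WNT genes, WNT7B took 59.3% in OSCs (57.9% to 61.0% over the libraries) and 43.8% in non-OSCs (41.2% to 47.6%). The share of WNT5A was 31.7% against 24.9%, and that of WNT5B 2.78% against 23.9%. Shares of counts are not corrected for gene length, and they describe RNA and not secreted protein.

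Of the 8 Frizzled receptors tested, 4 were higher and 3 lower in OSCs, beside 32.4% and 31.5% of all genes. FZD8 (chr10:35638247-35642296, minus strand) changed most. It measured 210.5, 229 and 222 CPM in OSCs, against 111, 127 and 130 in non-OSCs, with a log2 fold change of 0.85 ± 0.0601 (adjusted p = 5.65e-11). FZD6 rose from 68.2 ± 4.49 to 98.7 ± 4.16 CPM (mean ± SD, n = 3), with a log2 fold change of 0.53 (adjusted p = 4.71e-07). FZD7 (0.30, adjusted p = 0.00706) and FZD5 (0.31, adjusted p = 0.0236) were called higher, but FZD7 lost its call without OSC 2 (adjusted p = 0.0611), and FZD5 lost it with DESeq2 and without non-OSC 1, OSC 2 or OSC 3 (up to 0.119). FZD1 fell from 97.6 ± 6.0 to 73.6 ± 3.35 CPM (log2 fold change -0.41), FZD2 from 27.7 ± 1.95 to 21.9 ± 0.767 CPM (-0.33) and FZD4 from 21.1 ± 0.51 to 15.6 ± 0.942 CPM (-0.43). FZD3 did not pass (0.15, adjusted p = 0.226).

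All 4 co-receptors were called higher in OSCs, as were 32.4% of all genes, by very different amounts. ROR1 (chr1:63774017-64181498, plus strand), a receptor of WNT5A, measured 13.7, 13.6 and 11.5 CPM in OSCs, against 4.92, 4.49 and 4.74 in non-OSCs (log2 fold change 1.45 ± 0.169, adjusted p = 1.61e-07). Its relative ROR2 rose from 17.7 ± 1.29 to 27.8 ± 1.32 CPM (0.65, adjusted p = 1.25e-05). The libraries of both groups were apart for ROR1 and ROR2. LRP5 and LRP6, the co-receptors of the canonical branch, had log2 fold changes of 0.14 (adjusted p = 0.0423) and 0.16 (adjusted p = 0.0348), with libraries that overlapped between the groups. Both calls were lost with DESeq2. That of LRP5 was also lost without non-OSC 1, OSC 2 or OSC 3 (adjusted p up to 0.19), and that of LRP6 without non-OSC 2, non-OSC 3, OSC 1 or OSC 3 (up to 0.176).

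The secreted inhibitors did not move together. SFRP1, which binds Wnt ligands, measured 182, 182.5 and 173 CPM in OSCs, against 556, 525 and 531 in non-OSCs (log2 fold change -1.58 ± 0.0457, adjusted p = 1.62e-17). DKK3 (chr11:11956207-12009769, minus strand), a DKK family protein that differs from the others in its binding partners, was higher in OSCs, at 119, 122 and 118 CPM against 68.3, 70.5 and 75.5 CPM (0.75 ± 0.0614, adjusted p = 6.95e-10). Of the DKK3 exons 47.5% lie opposite exons of USP47, whose own log2 fold change was 0.17. The strandedness of the libraries is not given in the sources used here, so the part of these reads in the DKK3 value was not tested. DKK1 (38.1 ± 2.90 against 41.5 ± 2.67 CPM, adjusted p = 0.232) and DKK2 (8 to 22 counts in all 6 libraries, adjusted p = 0.613) did not pass the test. SFRP2 stayed at 6 to 13 counts and was not tested.

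Of the nuclear and feedback genes, TCF7 (chr5:134114681-134151865, plus strand) was lower in OSCs, at 13.2, 9.31 and 9.91 CPM against 19.7, 24.1 and 20.6 CPM (log2 fold change -0.996 ± 0.142, adjusted p = 2.64e-06). LEF1 (chr4:108047545-108168956, minus strand) was lower by less, at 34.5, 37.9 and 40.8 CPM against 43.7, 45.5 and 50.4 CPM (-0.30 ± 0.0883, adjusted p = 0.00549). AXIN2 (chr17:65528563-65561648, minus strand), a target gene that feeds back on the pathway, measured 8.75, 12.3 and 10.5 CPM in OSCs, against 7.14, 7.77 and 8.60 in non-OSCs (0.44 ± 0.17, adjusted p = 0.0293). The AXIN2 groups are hardly apart, and the call was lost with DESeq2 and without non-OSC 1, non-OSC 2 or OSC 2 (adjusted p up to 0.176). Of the AXIN2 exons 25.3% are shared on the same strand with ENSG00000266076, which had 0 counts in these 6 libraries. The ubiquitin ligase ZNRF3 did not pass (-0.27, adjusted p = 0.0582), and it was called without the filter, with a replicate block and without non-OSC 1 or OSC 2.

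Summed over each role, the levels give the shift in 1 view. The 19 ligands summed to 408 ± 14.7 CPM in OSCs, against 239 ± 8.13 CPM in non-OSCs (mean ± SD, n = 3). The Frizzled receptors summed to 514 ± 16.8 against 407 ± 11.7 CPM and the co-receptors to 361 ± 8.48 against 312 ± 5.21 CPM. The inhibitors summed to 340 ± 9.98 against 652 ± 16.5 CPM, most of it SFRP1. The sum over all 46 members was nearly the same, 1710 ± 45.5 against 1720 ± 22.4 CPM. No p was computed for these sums, in which long and abundant genes weigh most.

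Against shCtrl, FZD4, LRP5 and DKK1 differed with shPDK1#1, and 12 members differed with shPDK1#2. With shPDK1#1, 3 of the 31 members tested passed the test, FZD4 and LRP5 higher and DKK1 lower, where 3.06% of all 14597 genes passed (1.62% higher and 1.44% lower). With shPDK1#2, 5 members were higher (FZD4, LRP5, LEF1, RNF43 and DKK2) and 7 lower (WNT7B, WNT6, WNT11, WNT5B, FZD8, DKK3 and SFRP1), where 26.1% of all genes passed (11.9% higher and 14.2% lower). RNF43 among them passed the filter through the PDK1 hairpin groups alone. Both hairpins were compared with the same shCtrl libraries, so their values are given side by side. The median log2 fold change over the members was 0.05 with shPDK1#1 and about 0 (-0.002) with shPDK1#2, and over all genes it was about 0 for each (0.003 and 0.008).

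**Figure D1:**
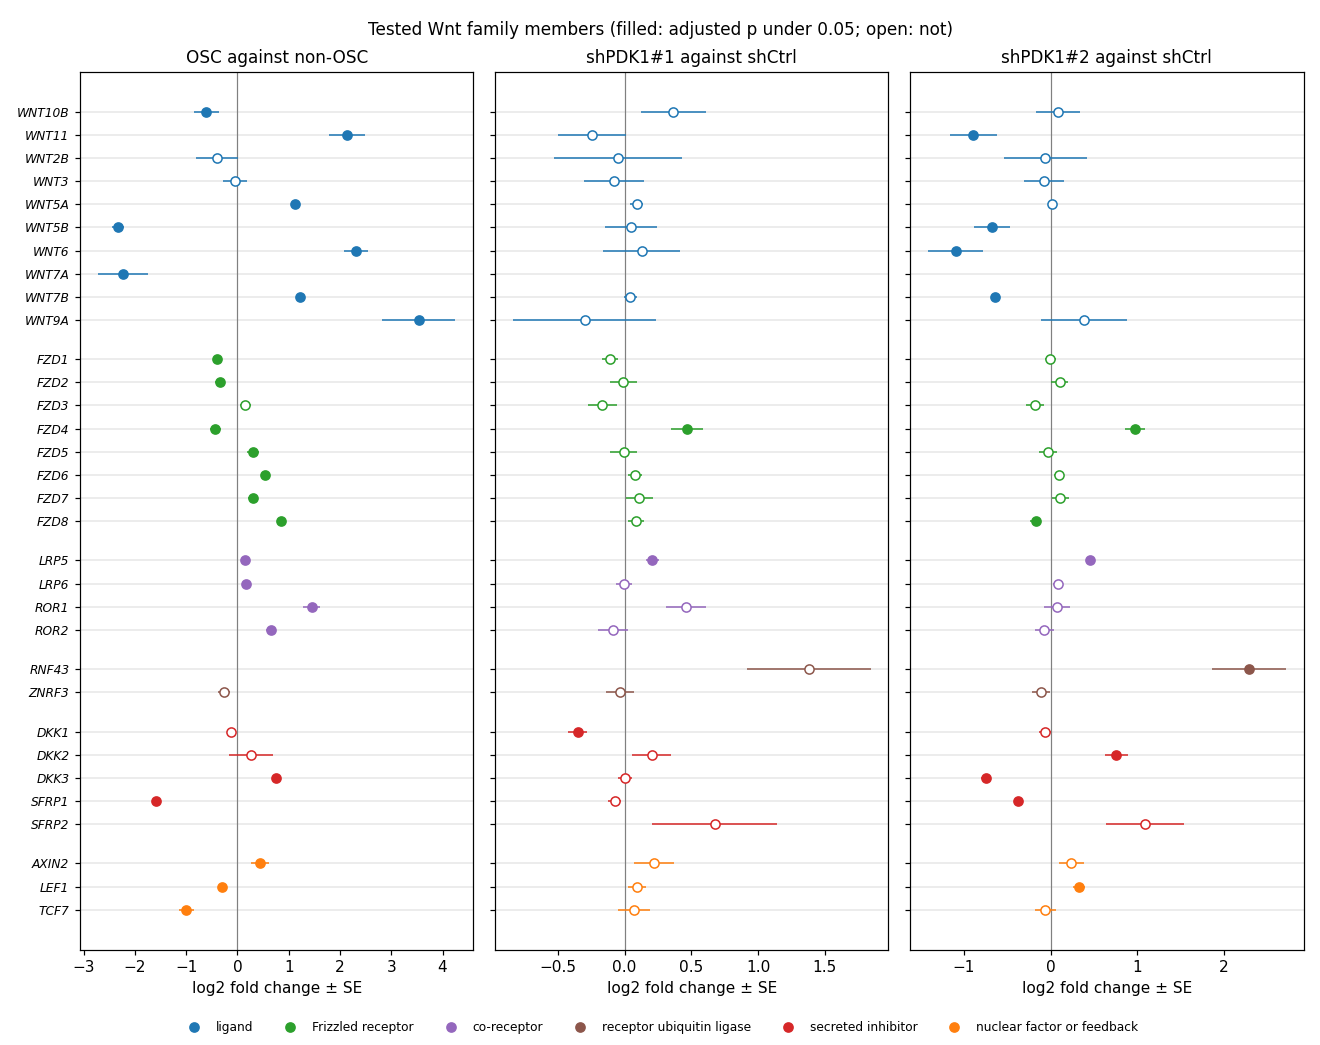
Log2 fold change ± SE of the tested members in OSCs against non-OSCs and with each hairpin against shCtrl, grouped and coloured by role. Each panel has its own scale, and filled points have an adjusted p under 0.05. The left panel holds 24 filled points of 30, the middle panel 3 of 31 (FZD4, LRP5 and DKK1) and the right panel 12 of 31.

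FZD4 (chr11:86945679-86955395, minus strand), known as the receptor of norrin and of several Wnt ligands, measured 20.9, 15.2 and 20.8 CPM with shCtrl, 26, 23.4 and 28.7 with shPDK1#1 and 32.2, 40.0 and 38.8 with shPDK1#2. Both hairpins lay above all shCtrl libraries, and shPDK1#2 lay above shPDK1#1. The log2 fold change was 0.47 ± 0.121 (SE) with shPDK1#1 (adjusted p = 0.0281) and 0.97 ± 0.115 with shPDK1#2 (adjusted p = 3.49e-07). The first call was lost without shCtrl 2, shPDK1#1 1 or shPDK1#1 3 (adjusted p up to 0.235). Of the FZD4 exons 18.9% lie opposite PRSS23, which had log2 fold changes of 0.12 and 0.30 with the hairpins, and the part of its reads was not tested. In OSCs against non-OSCs, FZD4 and PRSS23 were both lower (-0.43 and -0.27).

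LRP5 (chr11:68312591-68449275, plus strand), the co-receptor of the canonical branch, measured 171, 167.5 and 170 CPM with shCtrl, 189, 210 and 189 with shPDK1#1 and 228, 242 and 226 with shPDK1#2. The 3 conditions did not overlap. The log2 fold change was 0.21 ± 0.0484 with shPDK1#1 (adjusted p = 0.0125, lost without shCtrl 2 or shPDK1#1 2, at up to 0.0738) and 0.45 ± 0.0477 with shPDK1#2 (adjusted p = 4.55e-08). LRP6 stayed at log2 fold changes of about 0 (-0.002) and 0.08, neither of which passed. ROR1 had a log2 fold change of 0.46 with shPDK1#1 (adjusted p = 0.0993), which passed without shCtrl 2 or without shPDK1#1 2, and 0.07 with shPDK1#2.

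DKK1 (chr10:52314281-52318042, plus strand), which blocks LRP5 and LRP6 and is itself a known target of beta-catenin, measured 65.1, 63.0 and 65.7 CPM with shCtrl, 49.3, 47.3 and 54.9 with shPDK1#1 and 64.4, 57.7 and 62.6 with shPDK1#2. Only the shPDK1#1 libraries were lower than all others. The log2 fold change was -0.35 ± 0.0708 with shPDK1#1 (adjusted p = 0.00414, kept with each library left out in turn) and -0.07 with shPDK1#2 (adjusted p = 0.519). The difference between the hairpins itself passed the test (0.28 ± 0.0704 for shPDK1#2 over shPDK1#1, adjusted p = 0.00574).

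With shPDK1#2, DKK3 and SFRP1 were lower and DKK2 higher among the 5 inhibitors tested, beside 14.2% and 11.9% of all genes. SFRP2 did not pass (adjusted p = 0.0771). DKK3 measured 101, 102 and 100.4 CPM with shCtrl, 102, 100.6 and 102 with shPDK1#1 and 57.4, 60.1 and 64.1 with shPDK1#2. The shPDK1#1 libraries of DKK3 could not be told from shCtrl, and those of shPDK1#2 were all lower (log2 fold change -0.75 ± 0.0574, adjusted p = 1.91e-10). USP47, opposite DKK3, fell by 0.23 on the same scale. SFRP1 measured 139, 139 and 136 CPM with shCtrl, 128, 134 and 132 with shPDK1#1 and 108, 104 and 108 with shPDK1#2 (-0.37 ± 0.0486, adjusted p = 1.55e-06). DKK2 went up instead, from 105, 81 and 69 counts with shCtrl and 86, 103 and 123 with shPDK1#1 to 167, 159 and 155 with shPDK1#2 (0.76 ± 0.137, adjusted p = 0.000131). The inhibitors summed to 315 ± 3.53 CPM with shCtrl, 296 ± 4.72 with shPDK1#1 and 247 ± 6.02 with shPDK1#2.

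Of the 9 ligands tested, 4 were lower with shPDK1#2 (14.2% of all genes were) and 0 were called with shPDK1#1 (3.06% of all genes were). With shPDK1#1 0 of the 9 had an unadjusted p under 0.05 and DESeq2 also called 0. WNT7B measured 199, 212 and 223 CPM with shCtrl, 214, 229.5 and 210 with shPDK1#1 and 132, 142 and 133.5 with shPDK1#2. With shPDK1#2 every WNT7B library lay below all the others (log2 fold change -0.64 ± 0.0511, adjusted p = 3.98e-10). WNT5A did not differ detectably, at 158 ± 6.61 CPM with shCtrl, 168 ± 8.64 with shPDK1#1 and 160 ± 1.91 with shPDK1#2 (0.02 ± 0.049 with shPDK1#2, adjusted p = 0.829). The share of WNT7B in the ligand counts was 53.4% with shCtrl, 52.6% with shPDK1#1 and 43.0% with shPDK1#2, and that of WNT5A was 39.9%, 40.7% and 50.6%.

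The other 3 ligands called with shPDK1#2 had few counts. WNT6 had 36, 32 and 30 counts with shCtrl, 28, 44 and 42 with shPDK1#1 and 17, 10 and 24 with shPDK1#2 (log2 fold change -1.09 ± 0.317, adjusted p = 0.0114, lost without shPDK1#2 2 at 0.0713). WNT11 had 34, 40 and 36 counts with shCtrl, 28, 30 and 41 with shPDK1#1 and 21, 23 and 22 with shPDK1#2 (-0.89 ± 0.268, adjusted p = 0.0148, lost without shCtrl 3 or shPDK1#2 1 at up to 0.059). WNT5B had 51, 68 and 69 counts with shCtrl, 62, 61 and 84 with shPDK1#1 and 53, 38 and 41 with shPDK1#2 (-0.67 ± 0.204, adjusted p = 0.0154, lost without shCtrl 3 or shPDK1#2 2 at up to 0.107). All 3 genes were lower on the CPM scale in every shPDK1#2 library than in every shCtrl library. They were picked because they were called, and the share of all genes apart in this way was not computed, so this adds no support. Without shCtrl 3 or without shPDK1#2 2, only 4 members were called lower with this hairpin in place of 7.

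Among the receptors and nuclear genes, FZD8 was lower with shPDK1#2 by little (118, 120 and 120 CPM against 144, 127 and 132 CPM, log2 fold change -0.17, adjusted p = 0.0389). The FZD8 call was lost with DESeq2 and without shCtrl 1, shCtrl 3 or any 1 of the shPDK1#2 libraries (up to 0.23). LEF1 rose with shPDK1#2, to 87.4, 83.5 and 84.0 CPM from 68.5, 70.5 and 64.1 CPM with shCtrl (0.33 ± 0.0662, adjusted p = 0.000484), and measured 67.9, 80.1 and 68.9 CPM with shPDK1#1. RNF43, the ligase that removes Frizzled, had 7, 4 and 4 counts with shCtrl, 12, 15 and 15 with shPDK1#1 and 28, 33 and 22 with shPDK1#2. Its log2 fold change was 2.28 ± 0.424 with shPDK1#2 (adjusted p = 0.000179) and 1.38 ± 0.462 with shPDK1#1 (adjusted p = 0.116). RNF43 passed the filter through the PDK1 hairpin groups alone, so its call is not taken as support. RNF43 shares 68.4% of its exon bases with ENSG00000285897 on the same strand, and adding the reads of that gene left the call in place. AXIN2 and TCF7 did not pass with either hairpin (AXIN2 0.22 and 0.24, TCF7 0.07 and -0.06).

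The hairpins differed from each other for 11 of the 31 members when tested directly, 5 higher and 6 lower with shPDK1#2, where 16.3% of all genes differed (6.47% higher and 9.78% lower). Those higher with shPDK1#2 were FZD4, LRP5, LEF1, DKK1 and DKK2, and those lower were WNT7B, WNT6, WNT5B, FZD8, DKK3 and SFRP1. PDK1 itself was lower by 0.50 with shPDK1#2, so a stronger knockdown and a second effect of that hairpin cannot be told apart.

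The direction of each member in OSCs can be set beside its direction with shPDK1#2, since these comparisons share no library. Of the 29 members tested in both tables, 10 were called in both, beside 3029 of 14055 among all genes. Whether the members were called in both more often than other genes was not tested. Of the 10 members, 7 went in opposite directions. WNT7B, WNT6, WNT11, FZD8 and DKK3 rose in OSCs and fell with shPDK1#2, and FZD4 and LEF1 did the reverse. LRP5 was higher in both, and WNT5B and SFRP1 were lower in both. Some of these calls were lost without certain single libraries: those of WNT6, WNT11, WNT5B and FZD8 with shPDK1#2, and that of LRP5 in OSCs. The calls of FZD8 with shPDK1#2 and of LRP5 in OSCs were also lost with DESeq2. In the first table, WNT11 passed the filter through OSCs alone. Over all genes called in both comparisons, 2445 of 3029 (80.7%) were opposite, so the members' 7 of 10 lies near the share of genes at large. With shPDK1#1, 2 of the 29 members were called in both comparisons, beside 380 of 14055 among all genes. LRP5 was higher in each and FZD4 went in opposite directions, and over all genes 206 of 380 (54.2%) were opposite. The shPDK1#1 calls of LRP5 and FZD4 were each lost without certain single libraries.

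Some members sat at different levels in the 2 tables even in unmodified or control spheres. DKK2 had 8 to 22 counts in the libraries of OSCs and non-OSCs and 69 to 167 in the knockdown libraries, and LEF1 measured 37.8 ± 3.17 CPM in OSCs, against 67.7 ± 3.26 CPM with shCtrl. WNT6 was at 8.85 ± 1.28 CPM in OSCs, against 3.63 ± 0.377 CPM with shCtrl. The tables were normalized apart and the experiments were separate, so these differences were not tested.

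Beyond the members, 5 lists of other Wnt pathway genes were followed. Their counts stand beside 32.4% of all genes higher and 31.5% lower in OSCs, 11.9% higher and 14.2% lower with shPDK1#2, and 1.62% higher and 1.44% lower with shPDK1#1. Of the 12 tested genes that process ligands or act outside the cell, 7 were higher and 1 lower in OSCs. WLS, the carrier that every Wnt needs for its secretion, rose from 137 ± 0.493 to 586 ± 1.6 CPM (log2 fold change 2.10 ± 0.0439, adjusted p = 8.52e-20). RSPO2, a ligand that protects Frizzled from the ubiquitin ligases, rose by 2.87 and KREMEN2, a partner of the DKK proteins, by 1.31, while TRABD2A, a protease that inactivates Wnt, fell by 1.16. RSPO2 passed the filter through OSCs alone, with 27 to 56 counts there and 3 to 8 in non-OSCs. With shPDK1#2 this list held 2 lower genes, WLS (-0.20) and the glypican GPC6 (-0.31), of 13 tested.

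Of the 17 tested genes of other receptors and planar cell polarity, 5 were higher in OSCs, led by CELSR1 (1.55), DAAM1 (0.98) and the R-spondin receptor LGR4 (0.74), and 5 were lower, led by LGR5 (-2.16), PRICKLE2 (-1.02) and SCRIB (-0.47). LGR5 had 2 to 5 counts in OSCs and 15 to 24 in non-OSCs, so it passed the filter through the non-OSC libraries alone. With shPDK1#2, 4 of 18 were lower, among them DAAM1 (-0.48), CELSR1 (-0.46) and PRICKLE2 (-0.40), and DAAM2 was higher (0.55). Among the 22 genes of the cytoplasmic steps and the destruction complex, 13 were higher and 2 lower in OSCs (32.4% and 31.5% of all genes). The largest rises were those of APC2 (1.24), the Dishevelled gene DVL3 (0.56) and TNKS (0.52), and the falls were AMER1 (-0.27) and CSNK1A1 (-0.27). With shPDK1#2, 11 of these 22 were lower (14.2% of all genes), led by APC2 (-0.79), RNF146 (-0.59) and CSNK1G3 (-0.54), and AMER1 was higher (0.41). RNF146, which marks axin for destruction, was the 1 gene of this list that passed with shPDK1#1 (-0.50).

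Of the 18 nuclear factors, 8 were higher in OSCs (32.4% of all genes), led by TLE2 (0.98), TCF7L1 (0.58) and CTNNBIP1 (0.54), and 5 were lower, led by TLE1 (-0.44), TLE3 (-0.40) and CDK8 (-0.30). With shPDK1#2 the corepressor TLE1 (-0.64) and EP300 (-0.21) were lower and CBY1 (0.48) and BCL9 (0.24) higher. Of the 15 tested target genes outside the family, 7 were higher in OSCs (again beside 32.4%), led by SP5 (1.22), JUN (1.08) and TNFRSF19 (0.98), and 2 were lower, among them MSX1 (-0.69). SP5 had few counts, 14 to 22 in OSCs and 7 to 8 in non-OSCs, and stayed under 10 in all non-OSC libraries. With shPDK1#2, 5 targets were lower, led by JUN (-0.91), MSX1 (-0.57) and CCND1 (-0.51), and 3 were higher, among them ID2 (0.72) and TWIST1 (0.41). JUN (-0.32) and CCND1 (-0.16) were also lower with shPDK1#1. The targets, like the members, thus did not move in 1 direction.

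Markers of other cell types were read in the same libraries, and their part in these results was not tested. PTPRC, which marks leukocytes, had no more than 2 counts in any library, CDH5 of endothelium had 0 and CDH1 of epithelium no more than 1. Other genes of these lists did differ. The endothelial gene KDR had 53 counts in each non-OSC library and 4 to 5 in OSCs (log2 fold change -3.46), and the monocyte gene CD14 had 18 to 23 counts in non-OSCs and 1 to 5 in OSCs (-2.48), each passing the filter through non-OSCs alone. The 5 leukocyte markers, almost all CD68, summed to 55.3 to 56.9 CPM in OSCs, 60.7 to 68.9 in non-OSCs, 37.1 to 43.9 with shCtrl, 36.7 to 39.3 with shPDK1#1 and 21.7 to 24.1 with shPDK1#2. The 4 endothelial markers summed to at most 6.72 CPM in any library. The 6 epithelial markers summed to 292 to 302 CPM in OSCs, against 1100 to 1230 in non-OSCs, almost all of it KRT8 and KRT18. They summed to 330 to 355 CPM with shCtrl, 380 to 397 with shPDK1#1 and 436 to 475 with shPDK1#2, where KRT8 (0.38) and KRT18 (0.43) were higher. The 4 fibroblast markers, almost all PDGFRA, summed to 373 to 394 CPM in OSCs, against 174 to 187 in non-OSCs. Beside the changes with shPDK1#2, PDGFRB measured 14.8, 14.3 and 12.7 CPM against 3.18, 2.21 and 2.86 CPM with shCtrl (log2 fold change 2.35), and LUM, at few counts, was higher by 2.15, while the sum of the 4 fibroblast markers was 261 to 276 CPM against 269 to 288 CPM.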

How the data were processed

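RNA from 15 libraries of the 143B line (5 conditions, 3 libraries each) was sequenced by the study as paired-end reads. The authors trimmed reads with Trimmomatic 0.39, aligned them with STAR 2.7.11a to GRCh38.p14 and deposited RSEM 1.3.3 expected counts per gene in 2 tables, without normalization between libraries. Column names do not spell the conditions of the first table: they were assigned by the culture format they name (flat for non-OSCs, sphere for OSCs, after the study's methods), and each OSC direction rests on this. The annotation and strandedness are not given in the sources used here; all gene identifiers were found in GENCODE 44. RSEM divides reads between overlapping transcripts, so values of genes with same-strand overlaps are uncertain. Among the genes named, these include RNF43, AXIN2, CD68 (81.6% of exon bases), CSNK1A1 (49.3%) and PDGFRA (16.1%). Overlap with exons of the other strand, beside DKK3 and FZD4, was large for CBY1 (44.8%), DAAM2 (30.1%) and PRICKLE2 (25.3%), and its part was not tested.

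Expected counts were rounded (6.85% and 6.92% of values were not whole). The tables were fitted apart with edgeR 4.0.16 (TMM, filterByExpr by condition, quasi-likelihood test, R 4.3.3), with Benjamini-Hochberg adjustment over the 14288 and 14597 genes tested and a threshold of 0.05. The 9 knockdown libraries shared 1 fit. CPM used TMM library sizes (factors 0.981 to 1.02), and the floor was 3 counts. Replicates of a condition were distinct (chi-square of their counts over its degrees of freedom, 1.95 to 3.7), and each library was counted once. The scripts were tested on simulated counts. Full statistics were given for members that passed the test in at least 1 comparison; from the other pathway lists at most 3 rises and 3 falls per comparison were named. The values of some listed genes are not reported here. Alternatives were DESeq2 1.42.0, library size alone, a replicate block, no filter, a minimum of 10 counts per library, fits of only the groups compared and leaving out each library. The members and lists were chosen with earlier results of these data known. Values after ± are the SD between libraries or the SE of a log2 fold change.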

Additional observations from a re-analysis of the deposited data

Results flagged for a closer look

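The members below were marked because their response to the hairpins differed, by the test of shPDK1#2 against shPDK1#1 in edgeR's quasi-likelihood fit. Higher with shPDK1#2 were DKK2 by a log2 fold change of 0.56, FZD4 by 0.50, DKK1 by 0.28, LRP5 by 0.24 and LEF1 by 0.23. Lower with shPDK1#2 were WNT6 (-1.22), DKK3 (-0.75), WNT5B (-0.72), WNT7B (-0.68), SFRP1 (-0.30) and FZD8 (-0.26). DKK1 was the only one of these 11 that passed the test with shPDK1#1 and not with shPDK1#2. The calls of WNT6, WNT5B and LEF1 each rested on single libraries: that of WNT6 was lost without shPDK1#2 2, that of WNT5B without shPDK1#1 3 or shPDK1#2 2, and that of LEF1 without shPDK1#1 1, shPDK1#1 3 or shPDK1#2 1. The cause of the differences was not tested.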

How the results depend on the processing

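No member's call turned its direction under any alternative run. Of the members called, 18 of 24 in OSCs against non-OSCs, 1 of 3 with shPDK1#1 (DKK1), 8 of 12 with shPDK1#2 and 8 of 11 between the hairpins stayed called in every alternative fit that gave them a value and with each library left out. The minimum of 10 counts in every library removed WNT7A, WNT9A and WNT11 from the first table and RNF43 from the second, so these have no value under it. With 1 library left out at a time, the members called higher and lower numbered 11 to 14 and 8 to 9 in OSCs (15 and 9 with all libraries), 1 to 2 and 1 with shPDK1#1 (2 and 1), 5 and 4 to 7 with shPDK1#2 (5 and 7), and 4 to 5 and 4 to 7 between the hairpins (5 and 6). Over all genes with shPDK1#1, 128 to 272 were called higher and 117 to 236 lower (236 and 210 with all libraries), with both lowest counts without shPDK1#1 3. The other counts over all genes stayed within 1.5 times under every alternative. Whether replicate numbers pair the libraries was not tested. Deviations of libraries with the same number correlated at -0.0442 to 0.136 and those with different numbers at -0.0898 to 0.0494. The highest values were same-number pairs (shPDK1#1 2 with shPDK1#2 2 at 0.136, non-OSC 1 with OSC 1 at 0.0993 and non-OSC 3 with OSC 3 at 0.0646). Not every library correlated best with its own number. A fit with the replicate number as a block called 15 members higher and 10 lower in OSCs, 2 and 1 with shPDK1#1, 5 and 7 with shPDK1#2, and 5 and 6 between the hairpins. Adding the reads of the overlapping gene to AXIN2 and RNF43, an alternative chosen after seeing the data, changed no call. With 3 libraries per condition and few counts, members such as WNT2B in either table, or WNT9A and SFRP2 in the knockdown table, could differ without passing the test.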
